A study of Mus musculus with 3 samples.

Results

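Heat shock protein genes were described in single cells of LLC1 tumours grown in mouse bone. The members are 10 genes, Hspa1a, Hspa1b, Dnajb1, Hsph1, Hspb1, Hspa8, Hsp90aa1, Hsp90ab1, Hspd1 and Hspe1, chosen by symbol from the 55357 features of the deposited count matrices. LLC1 is a mouse Lewis lung carcinoma line. In all 3 groups equal numbers of LLC1 cells were placed in the tibial marrow of mice aged 8 weeks, and the tumours were taken 14 days later. The groups differ in the host: DMP1-Cre Mfn2-/- mice (Mfn2 knockout), DMP1-Cre Rhot1-/- mice (Rhot1 knockout) and wild-type mice, for which the labels name no Cre. Mfn2 encodes a mitochondrial fusion and tethering protein and Rhot1 a mitochondrial transport adaptor. Dmp1-Cre is used to delete genes in osteocytes, and the same tumour line was injected in every group. Over all kept cells the osteocyte gene Dmp1 had 6 UMIs in the Mfn2 knockout, 3 in the Rhot1 knockout and 9 in the wild type, Sost had 0, 0 and 1, and Mepe had none. Phex, which osteocytes also express, had 908, 768 and 578 UMIs in 739, 646 and 478 cells. No cluster was named osteocyte-like, and the deletion was not checked.

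Each genotype is 1 library made from tumours of 3 mice mixed in equal parts, dissociated in collagenase type IV at 2 mg per ml for 1 h at 37 °C and sorted for live cells. There is therefore no replicate, no spread between mice and no test: differences below compare libraries, and genotype, pool and handling of the library cannot be told apart. All intervals are exact 95% intervals and cover counting error only. The libraries held 10016, 9534 and 9393 barcodes with 118123705, 118223251 and 112088653 UMIs in the Mfn2 knockout, Rhot1 knockout and wild type. After filtering, 9560, 9138 and 9041 cells remained. The pairs of libraries shared 20 to 35 barcodes. Clustering gave 19 clusters, and marker genes named 7 classes; 20.8%, 22.1% and 28.6% of cells stayed unnamed. Levels are UMIs per 1000000 UMIs of the class (CPM). Because the kit counts molecules at the 3′ end, these levels are not scaled by transcript length.

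Heat shock proteins are chaperones: they hold, fold or refold other proteins, and several are induced when proteins unfold. The factor HSF1 binds inverted repeats of nGAAn, the heat shock element, in the promoters of the inducible genes. Hspa1a and Hspa1b encode the stress-inducible HSP70, whereas Hspa8 encodes the HSP70 made constantly. Dnajb1 is an HSP40 that loads substrates onto HSP70, and Hsph1 is an HSP110 that exchanges its nucleotide. Hspb1 is a small heat shock protein that holds unfolded proteins. Hsp90aa1 and Hsp90ab1 are the inducible and the constant cytosolic HSP90. Hspd1 and Hspe1 are the chaperonin and co-chaperonin of mitochondria. In tissues that are digested to single cells, the inducible members are also known to respond to the digestion.

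Promoter sequences of 7 of the 10 members were matched in the RefSeq promoter table, which uses GRCm38.p6; Hspa8, Hsp90aa1 and Hsp90ab1 were not. The 250 bases before the start site are given 5′ to 3′ on the gene's strand, and capitals mark GAANNTTC or TTCNNGAA, the paired units of the heat shock element. Each of these motifs reads the same on both strands, and neighbouring matches may overlap. In the 300-base windows of all 32851 promoters, GAANNTTC was present in 7.86% and TTCNNGAA in 8.52%, and 15.1% held at least one of them. Hspa1a and Hspa1b are shown because the results turn on them and because they differ so little.
Hspa1a, chr17:34972157-34972406, minus strand: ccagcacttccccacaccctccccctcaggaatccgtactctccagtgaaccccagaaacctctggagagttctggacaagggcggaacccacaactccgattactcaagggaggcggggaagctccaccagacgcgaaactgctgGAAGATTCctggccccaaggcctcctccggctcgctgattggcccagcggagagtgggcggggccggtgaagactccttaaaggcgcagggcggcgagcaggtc
Hspa1b, chr17:34959239-34959488, minus strand: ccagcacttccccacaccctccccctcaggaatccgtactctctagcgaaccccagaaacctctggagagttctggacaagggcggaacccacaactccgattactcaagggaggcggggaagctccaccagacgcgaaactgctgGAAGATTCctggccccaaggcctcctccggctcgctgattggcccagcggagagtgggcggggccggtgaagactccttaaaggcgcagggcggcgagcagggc
The 2 windows were equal at 247 of 250 bases, or 98.8%. The differences, with the Hspa1a base first and positions counted from the 5′ end of the window, were C44T, T47C and T249G. Both held 1 GAANNTTC, beginning 104 bases before the start.

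Dnajb1, Hsph1, Hspb1 and Hspe1 are shown for the range from no paired unit to a run of them.
Dnajb1, chr8:83607925-83608174, plus strand: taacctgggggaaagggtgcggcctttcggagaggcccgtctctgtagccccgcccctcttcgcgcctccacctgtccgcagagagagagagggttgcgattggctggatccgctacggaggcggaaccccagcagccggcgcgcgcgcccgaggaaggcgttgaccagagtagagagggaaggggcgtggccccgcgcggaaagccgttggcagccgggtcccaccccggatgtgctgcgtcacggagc
Hsph1, chr5:149636337-149636586, minus strand: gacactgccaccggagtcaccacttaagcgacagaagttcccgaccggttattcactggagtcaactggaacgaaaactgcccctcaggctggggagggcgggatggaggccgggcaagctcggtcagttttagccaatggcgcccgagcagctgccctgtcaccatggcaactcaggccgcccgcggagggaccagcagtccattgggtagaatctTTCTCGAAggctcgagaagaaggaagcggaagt
Hspb1, chr5:135887669-135887918, plus strand: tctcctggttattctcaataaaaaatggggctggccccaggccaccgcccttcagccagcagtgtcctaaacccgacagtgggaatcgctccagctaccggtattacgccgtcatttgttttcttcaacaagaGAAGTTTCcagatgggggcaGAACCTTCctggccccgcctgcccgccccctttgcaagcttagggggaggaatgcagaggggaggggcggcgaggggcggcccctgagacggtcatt
Hspe1, chr1:55087898-55088147, plus strand: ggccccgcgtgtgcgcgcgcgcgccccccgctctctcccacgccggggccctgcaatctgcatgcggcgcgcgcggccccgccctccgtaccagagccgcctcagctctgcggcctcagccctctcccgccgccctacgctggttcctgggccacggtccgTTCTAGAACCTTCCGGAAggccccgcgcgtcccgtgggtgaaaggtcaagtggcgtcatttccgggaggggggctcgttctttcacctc
Hspe1 held 3 overlapping paired units from 89 bases before its start, which make up 2 elements of 3 units; such an element was present in 0.603% of all promoters. Hspd1 lies head to head with Hspe1, and one of its 2 start sites held the same run on the opposite strand. The Hsph1 window of 300 bases held 3 paired units and 1 element of 3 units, of which 1 paired unit lies before the start. TATAAA, searched on both strands, was found in no member's window and in 13.6% of all promoters. CCAAT, likewise, was in 37.4% of all promoters and in those of Hspa1a, Hspa1b and Hsph1. Dnajb1 and Hspd1 each held it at 1 of their 2 start sites, for Dnajb1 the one printed above. These matches describe letters in the windows and are not evidence of binding.

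In GENCODE M21 (GRCm38) Hspa1a spans 34969190 to 34972156 and Hspa1b 34956436 to 34959238, both on the minus strand of chromosome 17. They lie 9951 bases apart. No 100-base stretch in the last 500 bases of either transcript occurred in a transcript of another gene, so within this window their reads are not shared with another annotated transcript. Dnajb1, Hsph1 and Hsp90ab1 likewise shared none. Of the stretches in Hspa8, 58.4% also occurred in annotated copies such as Gm8337, so its level is less certain. The share was 34.4% for Hspe1, 33.8% for Hspb1, 17.3% for Hsp90aa1 and 16.9% for Hspd1. Hspa1a overlaps the annotated locus Gm20481, and Hspd1 and Hspe1 overlap each other by 112 bases at their 5′ ends.

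The inducible HSP70 genes had their lowest levels in tumour-like cells and their highest in immune classes, whereas Hsph1, both HSP90 genes and the mitochondrial pair were highest in tumour-like cells. Hspa1a had a median over the 3 libraries of 267 CPM in macrophage-like cells, with a range of 167 to 500 CPM. It was followed by dendritic-like cells at a median of 178 CPM, monocyte-like at 135, neutrophil-like at 126 and NK cell-like at 75.5 CPM. The ranges of neighbouring classes in that order overlapped over the libraries. In tumour-like cells Hspa1a had 2.56, 2.45 and 5.23 CPM in the Mfn2 knockout, Rhot1 knockout and wild type, below the range of every other class. Hspa1b had its highest median, 106 CPM, in NK cell-like cells, with a range of 4.99 to 149 CPM. The low end there is the Mfn2 knockout, with 3 UMIs in 134 cells. In tumour-like cells Hspa1b had 12.4, 12.0 and 23.97 CPM in the Mfn2 knockout, Rhot1 knockout and wild type, again below all other ranges apart from that NK cell-like value.

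**Figure D1:**
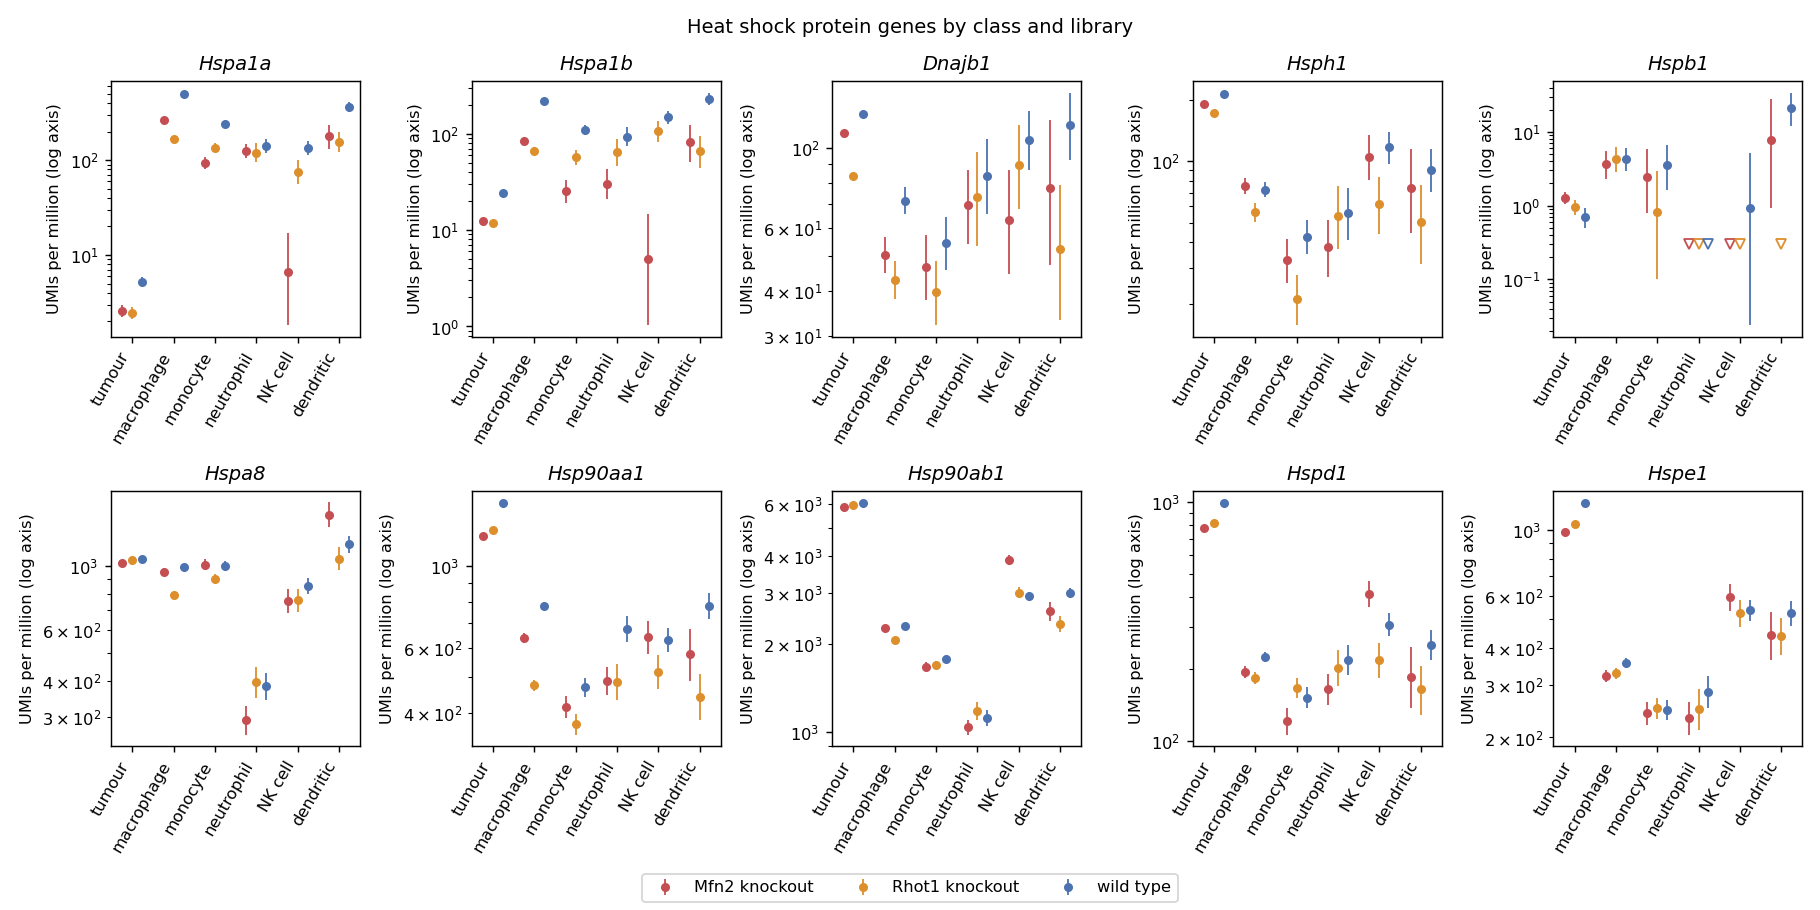
Levels of the 10 genes in 6 classes. Each point is 1 library, the y axis is CPM on a log scale, bars are exact 95% Poisson intervals, and open triangles mark classes with no UMI. Hspa1a and Hspa1b are lowest in tumour-like cells apart from the Mfn2 knockout NK cell-like value of Hspa1b, whereas Hsph1, Hsp90aa1, Hsp90ab1, Hspd1 and Hspe1 are highest there.

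Hsp90ab1 had a level in tumour-like cells of 5882, 5952 and 6088 CPM in the Mfn2 knockout, Rhot1 knockout and wild type. Its next class was NK cell-like, at 2912 to 3875 CPM, and its lowest was neutrophil-like, at 1040 to 1182 CPM. Hspd1 had 778, 816 and 991 CPM in tumour-like cells of the Mfn2 knockout, Rhot1 knockout and wild type, and at most 412 CPM in any other class. Hspe1 had 981, 1047 and 1231 CPM there, and at most 593 CPM elsewhere. Hsp90aa1, with 1213, 1253 and 1484 CPM, and Hsph1, with 190, 171 and 212 CPM, also had tumour-like ranges above those of the other 5 classes. Dnajb1 had its highest median there too, 110 CPM, but its ranges overlapped between neighbouring classes.

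Hspa8 was abundant in every class. Its median was 1187 CPM in dendritic-like, 1044 in tumour-like, 995 in monocyte-like, 954 in macrophage-like, 759 in NK cell-like and 382 CPM in neutrophil-like cells. Hspb1 was near the floor of the data. It had 3.69, 4.30 and 4.26 CPM in macrophage-like cells of the Mfn2 knockout, Rhot1 knockout and wild type, 1.27, 0.956 and 0.696 CPM in tumour-like cells, and no UMI in neutrophil-like cells of any library. The upper limits of those zeros were 3.50, 5.84 and 4.29 CPM in the Mfn2 knockout, Rhot1 knockout and wild type.

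The make-up of the pair differed between classes, although the promoters of Hspa1a and Hspa1b printed above are nearly equal. Of the UMIs of both genes together, Hspa1a made up 17.1% (15.02 to 19.3), 17.0% (14.9 to 19.2) and 17.9% (16.2 to 19.8) in the tumour-like class of the Mfn2 knockout, Rhot1 knockout and wild type. In macrophage-like cells it made up 76.2% (74.3 to 78.0), 71.4% (69.0 to 73.7) and 69.4% (68.2 to 70.7). Hspa1b gave more of the pair's UMIs in tumour-like cells and Hspa1a in macrophage-like cells in all 3 libraries. Monocyte-like cells had 78.8%, 70.4% and 68.6%, and neutrophil-like cells 80.6%, 65.0% and 60.4%. NK cell-like cells lay between, at 41.5% in the Rhot1 knockout and 47.7% in the wild type, with only 7 UMIs of the pair in the Mfn2 knockout. Intervals treat UMIs as independent, which UMIs of the same cell are not.

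**Figure D2:**
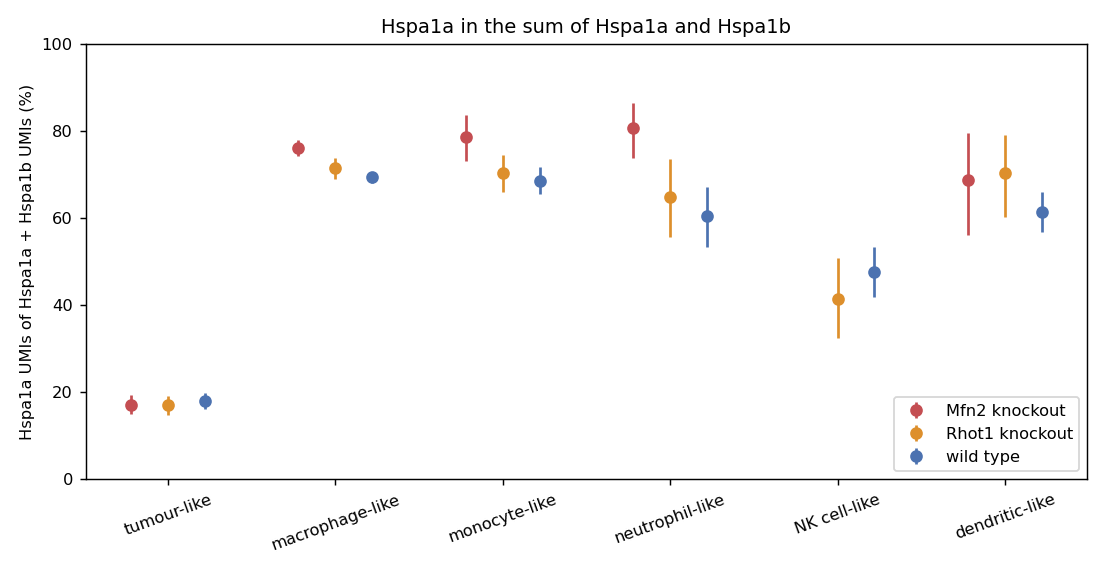
Hspa1a UMIs as a percentage of Hspa1a and Hspa1b UMIs by class and library, with exact 95% binomial intervals. Groups with under 20 UMIs are not drawn. The 3 tumour-like values are 17.0 to 17.9%, and the 3 macrophage-like values are 69.4 to 76.2%.

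For the comparison between hosts, a member counted as lower or higher where its log2 ratio of CPM was 0.32 or more in size and it reached 10 CPM in at least 1 of the 2 libraries. In tumour-like cells 8 of the 10 members reached that level; Hspa1a and Hspb1 did not. In the Mfn2 knockout against the wild type 3 were lower and none higher, where 4.32% of all 8199 genes measured were lower and 7.93% higher. In the Rhot1 knockout 2 were lower and none higher, where 2.42% of 8239 genes were lower and 7.71% higher. Over the alternatives the lower count was between 1 and 6 in the Mfn2 knockout and between 1 and 4 in the Rhot1 knockout; the Mfn2 count was 1 with a stricter cell filter (at least 500 genes and at most 10% mitochondrial UMIs) and 6 when libraries were clustered separately. The median log2 ratio of the 8 was -0.24 in the Mfn2 knockout and -0.26 in the Rhot1 knockout, beside 0.01 and 0.06 over all genes. Both knockouts are set against the same wild-type library, so that likeness between them is not independent evidence. The wild type was the highest of the 3 libraries for 9 of the 10 members, all but Hspb1. That count includes near-equal levels, such as Hspa8 at 1025 to 1051 CPM. The share of all genes highest in the wild type was not computed, so the count has no background. The mixture of tumour-like clusters also differed: hypoxia-marked cluster 4 held 1099, 519 and 587 of the 4666, 4634 and 3065 tumour-like cells in the Mfn2 knockout, Rhot1 knockout and wild type. Median mitochondrial shares were 1.26%, 1.47% and 1.05%. The part of either in the result was not tested.

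Among the inducible members in tumour-like cells, Hspa1b had 0.519 times its wild-type level in the Mfn2 knockout (0.478 to 0.562; 1019 against 1481 UMIs). In the Rhot1 knockout the ratio was 0.4995 (0.461 to 0.542; 1002 UMIs). Hspa1a, below the 10 CPM limit, had ratios of 0.490 (0.410 to 0.585) and 0.469 (0.391 to 0.560), with 210 and 205 UMIs in the Mfn2 and Rhot1 knockouts and 323 in the wild type. Both genes were lower in both knockouts by a like ratio, and no interval reached 1. Dnajb1 had 110, 83.5 and 124 CPM in the Mfn2 knockout, Rhot1 knockout and wild type, with log2 ratios of -0.18 (-0.22 to -0.14) and -0.57 (-0.62 to -0.53). Only the Rhot1 knockout passed the fold for Dnajb1. Hsph1 had log2 ratios of -0.16 and -0.31, short of it.

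The constant members Hspa8 and Hsp90ab1 were close between hosts in tumour-like cells. Hspa8 had 1025, 1044 and 1051 CPM in the Mfn2 knockout, Rhot1 knockout and wild type, and log2 ratios of -0.04 and -0.01. Hsp90ab1 had log2 ratios of -0.05 and -0.03. Hsp90aa1 had log2 ratios of -0.29 (-0.30 to -0.28) and -0.24 (-0.26 to -0.23), short of the fold. The mitochondrial pair had like ratios. Hspd1 had log2 ratios of -0.35 (-0.37 to -0.33) and -0.28, and Hspe1 -0.33 (-0.34 to -0.31) and -0.23. Hspd1 and Hspe1 passed the fold in the Mfn2 knockout and not in the Rhot1 knockout, a difference that was not tested. With the stricter cell filter neither passed in the Mfn2 knockout, at log2 ratios of -0.26 for Hspd1 and -0.26 for Hspe1, nor with the clusters weighted alike, at -0.26 and -0.25. Hspd1 had 63737, 68304 and 61215 UMIs in the Mfn2 knockout, Rhot1 knockout and wild type, so counting error is small, but the spread between pools of mice is unknown. Hspb1 had 104 and 80 UMIs in the Mfn2 and Rhot1 knockouts and 43 in the wild type.

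**Figure D3:**
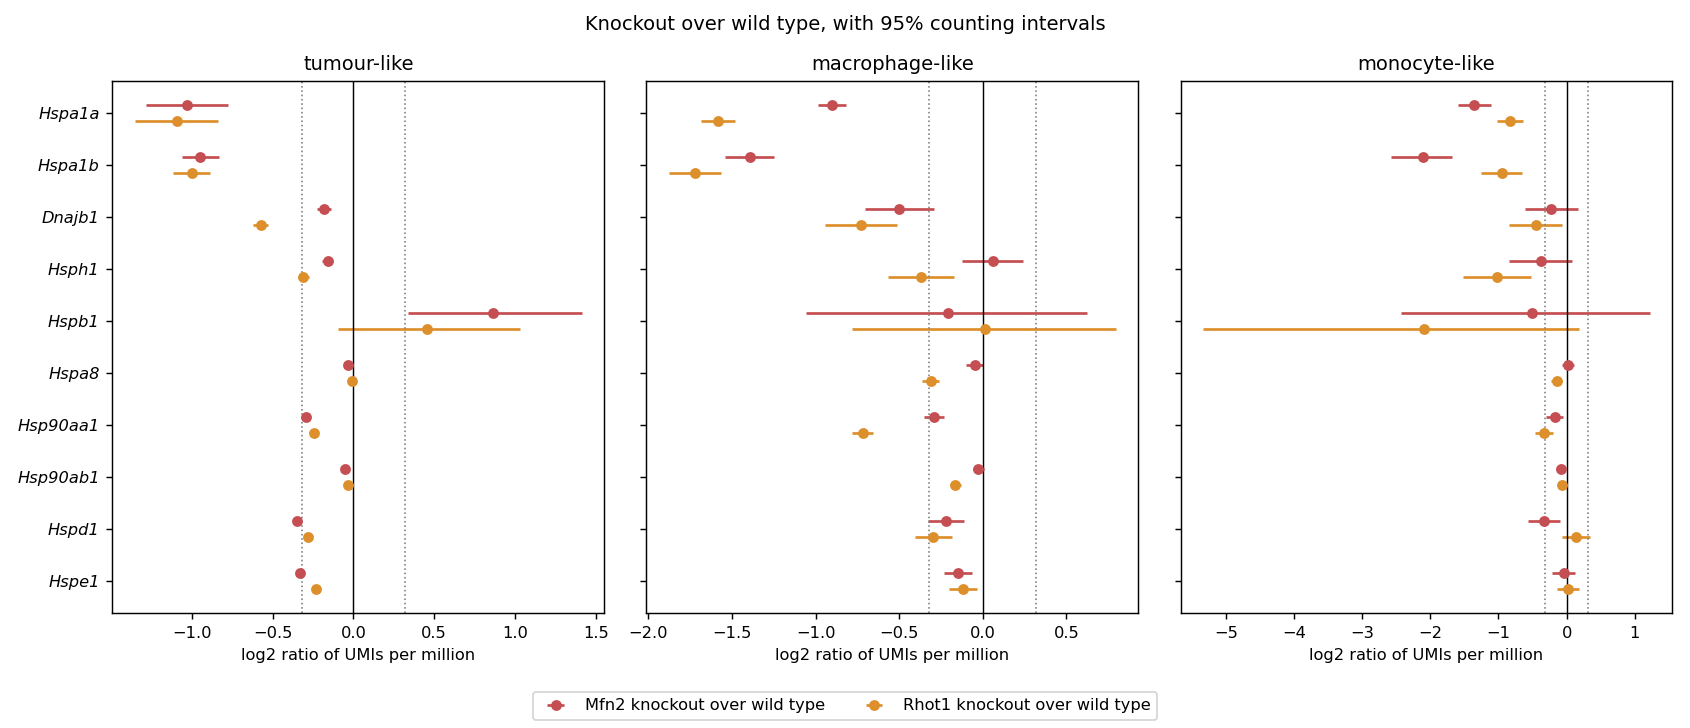
Log2 ratio of CPM of the Mfn2 knockout and the Rhot1 knockout over the wild type for each gene in 3 classes. Points are single libraries against 1 library, bars are exact 95% counting intervals, and dotted lines mark 0.32 in each direction. Hspa1a and Hspa1b lie left of the dotted line in all 3 classes in both knockouts, whereas Hspa8 and Hsp90ab1 lie within the dotted lines.

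In macrophage-like cells 9 of 10 members reached 10 CPM, all but Hspb1. In the Mfn2 knockout 3 were lower and none higher, where 8.38% of 7958 genes were lower and 10.5% higher. In the Rhot1 knockout 5 were lower and none higher, where 5.87% of 8036 genes were lower and 13.1% higher. Over the alternatives the lower count was between 2 and 5 in the Mfn2 knockout and between 4 and 7 in the Rhot1 knockout. The median log2 ratio of the 9 was -0.22 in the Mfn2 knockout and -0.37 in the Rhot1 knockout, beside 0.02 and 0.08 over all genes. Tumour RNA in the class was also unequal: Krt8, a keratin of the tumour cells, had 83.4, 69.7 and 61.8 CPM in the Mfn2 knockout, Rhot1 knockout and wild type, and 44.6%, 45.1% and 38.7% of cells held a UMI of Krt8 or Hmga2. With those cells left out, an alternative added after the data were seen, all 24 called ratios of the 3 larger immune classes kept their sign and 22 stayed past the fold. Cells without such a UMI can still hold tumour RNA, and most cells of each class stayed in. The part of tumour RNA in the ratios was not tested.

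Hspa1a had 267, 167 and 500 CPM in macrophage-like cells of the Mfn2 knockout, Rhot1 knockout and wild type. The ratios were 0.535 (0.504 to 0.567) and 0.334 (0.311 to 0.357). Hspa1b had 83.7, 66.8 and 220 CPM, with ratios of 0.380 (0.343 to 0.421) and 0.304 (0.272 to 0.338). The wild-type library was thus the highest of the 3 for both genes, and the Rhot1 knockout the lowest. Dnajb1, at 50.5, 43.1 and 71.4 CPM, had log2 ratios of -0.50 (-0.71 to -0.29) and -0.73 (-0.94 to -0.51). Hsph1, at 75.7, 56.2 and 72.5 CPM, was not lower in the Mfn2 knockout, with a log2 ratio of 0.06, and had a log2 ratio of -0.37 (-0.57 to -0.17) in the Rhot1 knockout.

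Hsp90aa1 had 640, 475 and 782 CPM in macrophage-like cells of the Mfn2 knockout, Rhot1 knockout and wild type, and log2 ratios of -0.29 and -0.72 (-0.78 to -0.66). Its constant partner Hsp90ab1 had 2268, 2061 and 2311 CPM and log2 ratios of -0.03 and -0.17. Hspa8 had log2 ratios of -0.05 and -0.31, Hspd1 -0.22 and -0.30, and Hspe1 -0.15 and -0.12. Within each family the inducible gene was therefore farther from the wild type than the constant one in both knockouts: Hspa1a and Hspa1b against Hspa8, and Hsp90aa1 against Hsp90ab1. The same order held in tumour-like cells, but not in every class. In neutrophil-like cells of the Mfn2 knockout Hspa8 counted as lower and Hspa1a did not.

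The lower pair levels in macrophage-like cells were seen in each of the 3 clusters of the class. Cluster 8, led by Arg1, Ppbp and Pf4, had 568, 306 and 1403 CPM of the pair in the Mfn2 knockout, Rhot1 knockout and wild type. Cluster 7, led by Ccl8 and the complement genes C1qa and C1qb, had 265, 203 and 506 CPM. Cluster 11, which adds the antigen presentation genes Cd74 and H2-Aa to the complement genes, had 203, 235 and 438 CPM. In each the wild type was highest, while the order of the knockouts was reversed in cluster 11.

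Tumour-like clusters showed the same order of the wild type above both knockouts. Cluster 4, led by Adm and with the hypoxia-responsive Ndrg1 and Egln3, had the highest pair level of the tumour-like clusters in every library, 35.4, 36.7 and 55.4 CPM in the Mfn2 knockout, Rhot1 knockout and wild type. Cluster 0 had 7.56, 13.1 and 16.6 CPM, cluster 1, led by histone and S-phase genes, 9.04, 10.8 and 24.5 CPM, and cluster 3 had 9.62, 11.3 and 32.9 CPM. Unnamed cluster 2, led by Cxcl1, Dcn and Lum and carrying tumour markers, had 8.21, 10.4 and 45.2 CPM. Of the 16 clusters with at least 50 cells in every library, the pair was highest in the wild type in 14. The exceptions were unnamed clusters 9 and 12, which also carry tumour markers. Cluster 9 had 18.6, 16.5 and 18.4 CPM in the Mfn2 knockout, Rhot1 knockout and wild type, and cluster 12 had 15.3, 53.1 and 45.9 CPM. Dnajb1 was highest in the wild type in 14 of the 16 and Hsph1 in 13. The clusters of a library share its handling and are not replicates.

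**Figure D4:**
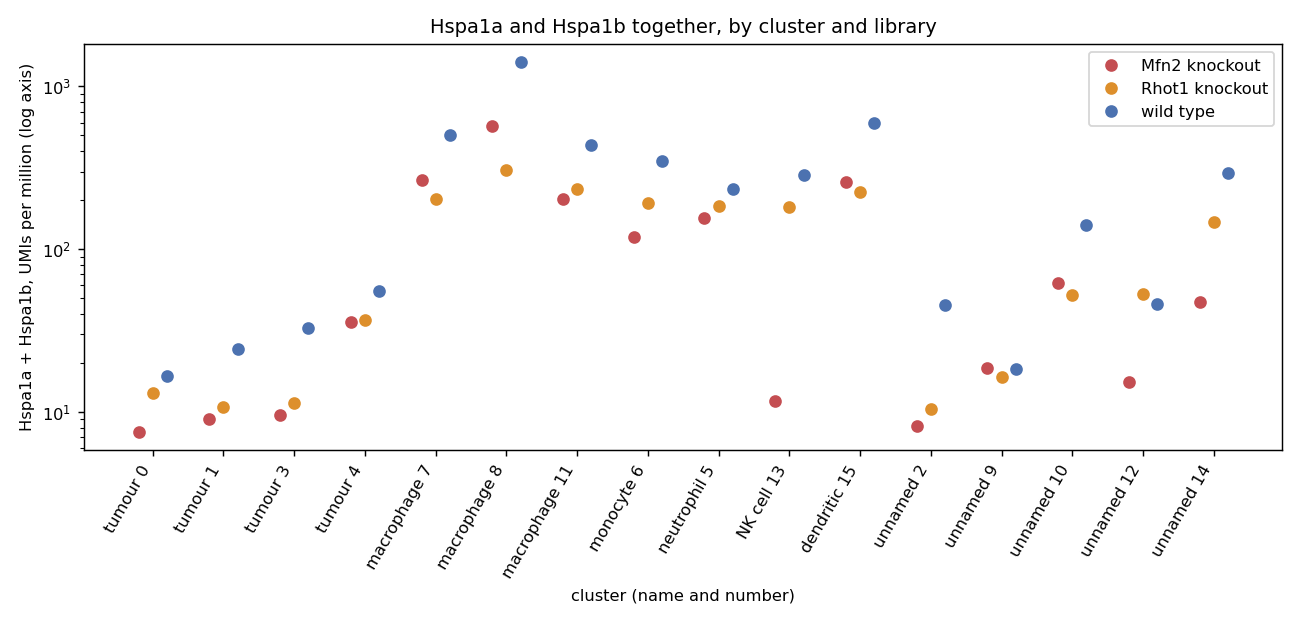
Summed level of Hspa1a and Hspa1b, in CPM on a log axis, for the 16 clusters with at least 50 cells in each library. Points are libraries, and the name before the number is the class. The wild type is highest in 14 clusters, and all 4 tumour clusters lie below all macrophage clusters.

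In monocyte-like cells 9 members were measured. In the Mfn2 knockout 4 were lower and none higher, beside 12.3% of all genes lower and 16.4% higher. In the Rhot1 knockout 5 were lower and none higher, beside 10.1% lower and 15.4% higher. Over the alternatives the lower count was between 2 and 6 in the Mfn2 knockout and between 3 and 6 in the Rhot1 knockout. Hspa1a, Hspa1b and Hsph1 were lower in both, with Hspd1 in the Mfn2 knockout and Dnajb1 and Hsp90aa1 in the Rhot1 knockout. Hspa1a had 93.9, 135 and 240 CPM in the Mfn2 knockout, Rhot1 knockout and wild type, and Hspa1b had 25.3, 56.7 and 110 CPM. The ratios of Hspa1b were 0.231 (0.168 to 0.312) in the Mfn2 knockout and 0.517 (0.418 to 0.636) in the Rhot1 knockout. Here the Mfn2 knockout was the lowest library, unlike in macrophage-like cells. Hsph1 rested on 66 and 51 UMIs in the Mfn2 and Rhot1 knockouts and 109 in the wild type; its log2 ratios were -0.38 (-0.85 to 0.07) and -1.02 (-1.53 to -0.52).

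Neutrophil-like cells were shallow, with a median of 1050, 1260 and 1129 UMIs per cell in the Mfn2 knockout, Rhot1 knockout and wild type. There 5 members were lower in the Mfn2 knockout and 2 in the Rhot1 knockout, with none higher, beside 28.1% and 23.7% of all genes lower and 27.2% and 29.4% higher. Hspa1b and Hsp90aa1 were lower in both, with Hsph1, Hspa8 and Hspd1 in the Mfn2 knockout. The 2 of 9 in the Rhot1 knockout are a share near that background. Both counts also changed over the alternatives of clustering, class rule, depth and fold, to between 1 and 8 in the Mfn2 knockout and between 0 and 7 in the Rhot1 knockout. Hspa1b had 30.3, 65.0 and 93.1 CPM, and Hspa1a 126, 120 and 142 CPM. In this class 1 cell held 41 of the 165 UMIs of the pair in the Mfn2 knockout and 1 cell held 39 of 117 in the Rhot1 knockout, while the top cell of the wild type held 16 of 202.

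The smaller classes had few cells. In NK cell-like cells, which also carried T-cell receptor genes Trbc1 and Trbc2, the pair had 11.6, 182 and 284 CPM in the Mfn2 knockout, Rhot1 knockout and wild type, from 134, 214 and 394 cells. Of 9 members measured there, 3 were lower and 2 higher in the Mfn2 knockout and 4 lower in the Rhot1 knockout. Of all genes there, 29.3% and 23.9% were lower and 33.5% and 22.8% higher. In the Mfn2 knockout the lower count is a share near that background and the higher count a share below it. Hspa1a and Hspa1b were lower in both, with Dnajb1 in the Mfn2 knockout and Hsph1 and Hspd1 in the Rhot1 knockout. The 2 that were higher in the Mfn2 knockout were Hspd1 and Hsp90ab1, and the tumour marker Krt8 moved with them, at 349, 57.0 and 105 CPM; its part in the result was not tested. In dendritic-like cells the pair had 260, 223 and 595 CPM from 63, 97 and 179 cells. There 6 members were lower and 1 higher in the Mfn2 knockout and 8 lower in the Rhot1 knockout, beside 32.2% and 25.7% of all genes lower and 29.9% and 28.7% higher. The 1 higher member was Hspa8, and the count of 8 includes Hspb1, which had 0 UMIs in the Rhot1 knockout and 16 in the wild type. The counts in NK cell-like and dendritic-like cells were not recomputed under the alternatives. B cell-like cells numbered 16, 18 and 39, too few to describe.

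The share of cells in which the pair was found was also lower in the knockouts. Each cell was thinned to 1500 UMIs, and shallower cells were left out. A UMI of Hspa1a or Hspa1b was then found in 1.69% (1.34 to 2.11), 1.85% (1.48 to 2.28) and 4.27% (3.58 to 5.05) of tumour-like cells of the Mfn2 knockout, Rhot1 knockout and wild type. Unthinned, the shares were 14.2%, 16.0% and 29.95%, at median depths of 16068, 16952.5 and 18977 UMIs. In macrophage-like cells the thinned shares were 20.02% (17.8 to 22.4), 20.2% (17.8 to 22.7) and 38.0% (35.4 to 40.5), and the unthinned shares 32.6%, 36.3% and 56.2%. The 2 knockouts were alike in this share in macrophage-like cells although their Hspa1a levels differed. In monocyte-like cells the thinned shares were 8.38%, 15.9% and 23.7%.

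No class is known to lack these genes. The lowest shares outside tumour-like cells were in neutrophil-like cells, at 1.74%, 2.17% and 7.64% of the 172, 138 and 157 cells deep enough, with 701, 312 and 506 cells left out. At most 54 cells per library were left out in the tumour-like class and at most 26 in the macrophage-like class. The tumour-like shares were no higher than the neutrophil-like ones in any library, so the share alone does not set them above background. Single tumour-like cells held up to 64, 44 and 33 UMIs of the pair in the Mfn2 knockout, Rhot1 knockout and wild type, and single neutrophil-like cells up to 41, 39 and 16. The top 1% of tumour-like cells held 37.1%, 29.2% and 17.4% of the class's UMIs of the pair. Hspa1a gave at most 17.9% of the pair in tumour-like and at least 69.4% in macrophage-like cells. In NK cell-like cells it gave 41.5% in the Rhot1 knockout and 47.7% in the wild type. The source of the pair's UMIs in tumour-like cells was not tested.

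**Figure D5:**
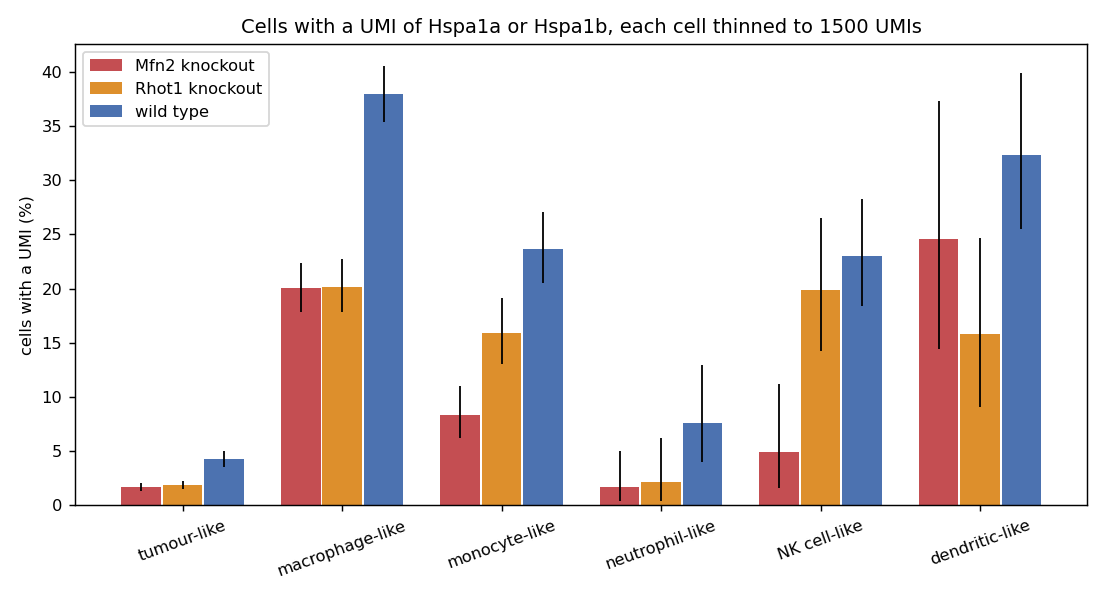
Percentage of cells with at least 1 UMI of Hspa1a or Hspa1b in 6 classes after thinning each cell to 1500 UMIs, with exact 95% binomial intervals. The 3 bars of a class are the 3 libraries. The wild-type bar is the tallest in each class, at 38.0% in macrophage-like and 4.27% in tumour-like cells.

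UMIs of the pair were concentrated in few cells, and in tumour-, macrophage- and monocyte-like cells more so in the knockouts. In tumour-like cells the top 10% of cells held 84.2%, 76.8% and 62.6% of the pair's UMIs in the Mfn2 knockout, Rhot1 knockout and wild type. In macrophage-like cells they held 74.6%, 64.3% and 54.8%, and in monocyte-like cells 90.4%, 78.4% and 66.9%. In NK cell-like cells the Rhot1 knockout was below the wild type, at 62.7% and 65.2%. These shares move with the number of cells that hold a UMI, which was lower in the knockouts. In macrophage-like cells the single highest cell held 52, 34 and 82 UMIs.

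In tumour-like and macrophage-like cells Hsph1 and Dnajb1 were found more often in cells with the pair, in all 3 libraries. At 1500 UMIs, Hsph1 was found in 39.7%, 36.5% and 36.2% of tumour-like cells with a UMI of the pair in the Mfn2 knockout, Rhot1 knockout and wild type, against 22.6%, 20.5% and 25.4% of those without. Dnajb1 was found in 38.5%, 17.6% and 26.9% of the cells with the pair and in 14.4%, 10.4% and 15.6% of those without. In macrophage-like cells Dnajb1 differed little, at 8.06%, 6.85% and 10.7% with the pair and 7.47%, 5.43% and 8.36% without. Hsph1 went the other way in monocyte-like cells of the Rhot1 knockout, at 1.06% of 94 cells with the pair and 3.02% of 496 without. The smaller classes had 3 to 68 cells with the pair per library, and there the direction varied. In macrophage-like cells the mean of Hsp90aa1 was 2.47, 0.877 and 2.45 UMIs per cell with the pair, against 0.746, 0.674 and 0.745 UMIs per cell without. The gap was thus wide in the Mfn2 knockout and the wild type and narrow in the Rhot1 knockout. Hspa8 in tumour-like cells differed less, at 1.95, 1.58 and 1.49 UMIs per cell with the pair and 1.51, 1.52 and 1.56 without.

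Other genes of the heat shock response passed the fold in numbers that differed by class. Of 18 other HSF1 target genes, 17 were measured in tumour-like cells, and none was lower and 1 higher in the Mfn2 knockout, and 1 lower and 1 higher in the Rhot1 knockout. The lower one was the polyubiquitin gene Ubb and the higher one, in both, Dedd2. Of all genes in that class, 4.32% were lower and 7.93% higher in the Mfn2 knockout. In the Rhot1 knockout 2.42% were lower and 7.71% higher. In macrophage-like cells 1 of 16, Dnaja1, was lower in the Mfn2 knockout, where 8.38% of all genes were lower. In the Rhot1 knockout 4 of 15, Dnaja1, Bag3, Dnajb4 and Ubb, were lower and 1, Hspbp1, was higher. Of all genes there, 5.87% were lower and 13.1% higher. In monocyte-like cells 1 of 16 was lower in the Mfn2 knockout and none of 16 in the Rhot1 knockout, beside 12.3% and 10.1% of all genes. In NK cell-like cells of the Rhot1 knockout 5 of 15 were lower, where 23.9% of all genes were. Dnaja1, an HSP40 of the cytosol, had 125, 114 and 167 CPM in macrophage-like cells of the Mfn2 knockout, Rhot1 knockout and wild type. Bag3, a co-chaperone of HSP70, had 27.4, 23.2 and 33.0 CPM in the same class. In macrophage-like cells these were the 2 lowest of the list in both knockouts. None of the 8 CCT chaperonin subunits, which fold actin and tubulin, passed the fold in tumour-like or macrophage-like cells of either knockout. Of 13 co-chaperones of HSP70 and HSP90 none was lower in tumour-like or macrophage-like cells. In tumour-like cells 1 was higher in the Mfn2 knockout and 0 in the Rhot1 knockout, and in macrophage-like cells 1 and 2. Of all genes in macrophage-like cells, 10.5% were higher in the Mfn2 knockout. Hspbp1, Stip1, Ahsa1 and Fkbp4 are both on this list and among the other HSF1 targets. Fkbp5, a steroid-responsive partner of HSP90, had 31.9, 12.9 and 8.25 CPM in macrophage-like cells of the Mfn2 knockout, Rhot1 knockout and wild type.

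Chaperones of the endoplasmic reticulum and its stress response showed 4 of 17 lower (Hspa5, Dnajc3, Pdia3 and Calr) and 1 higher (Dnajb9) in tumour-like cells of the Mfn2 knockout, and 1 lower (Ddit3) in the Rhot1 knockout. Hspa5, the HSP70 of that organelle, was among the lower ones in the Mfn2 knockout, at 617, 656 and 815 CPM in the Mfn2 knockout, Rhot1 knockout and wild type. Of all genes in tumour-like cells, 4.32% were lower and 7.93% higher in the Mfn2 knockout, and 2.42% lower in the Rhot1 knockout. In macrophage-like cells Ddit3 alone of 17 was lower in each knockout, with Hyou1 higher in the Rhot1 knockout. Of all genes there, 8.38% were lower in the Mfn2 knockout, and 5.87% lower and 13.1% higher in the Rhot1 knockout. Of 9 other mitochondrial chaperones and proteases none passed the fold in tumour-like cells, although Hspd1 and Hspe1 did in the Mfn2 knockout.

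Immediate early genes, which respond quickly to stimulation or tissue handling, moved with the inducible members. In macrophage-like cells 9 of 16 were lower and none higher in the Mfn2 knockout, and 10 of 16 lower and none higher in the Rhot1 knockout. Of all genes there, 8.38% and 5.87% were lower. The median log2 ratios of the list were -0.35 and -0.41. The summed level of the list was 5966, 5980 and 7601 CPM in the Mfn2 knockout, Rhot1 knockout and wild type. In monocyte-like cells the sums were 7637, 8002 and 9660 CPM. In tumour-like cells 3 of 12 were lower in the Mfn2 knockout and 4 of 12 in the Rhot1 knockout, beside 4.32% and 2.42% of all genes. The sums there were 3007, 2676 and 2920 CPM, so that the sum did not separate the wild type. The median log2 ratios of the list in tumour-like cells were 0.02 in the Mfn2 knockout and -0.11 in the Rhot1 knockout. Atf3, a stress-induced transcription factor, had 33.5, 23.9 and 75.9 CPM in tumour-like cells and 148, 125 and 265 CPM in macrophage-like cells. Fos, a subunit of AP-1, had 70.3, 50.4 and 104 CPM in tumour-like cells. Over the 16 clusters the summed list was highest in the wild type in 11. The part of handling in the lower member levels was not tested, and it cannot be told apart from the host genotype in this design.

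Oxidative stress genes moved differently by class. In macrophage-like cells of the Mfn2 knockout 6 of 7 measured Nrf2 targets were higher and none lower, and in the Rhot1 knockout 1, Gclc, was higher. Of all genes there, 10.5% and 13.1% were higher. In monocyte-like cells 2 of 7 were lower and none higher in each knockout, beside 12.3% and 10.1% of all genes lower. The median log2 ratios of these targets were -0.16 in the Mfn2 knockout and -0.27 in the Rhot1 knockout. Hmox1, the haem oxygenase, had 3079, 1473 and 1523 CPM in macrophage-like cells of the Mfn2 knockout, Rhot1 knockout and wild type. In tumour-like cells Hmox1 had 86.0, 43.6 and 52.1 CPM. In these 2 classes the Mfn2 knockout library was thus high in Hmox1 and below the wild type in Hspa1a and Hspa1b.

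Across the 18 combinations of class and library with at least 50 cells, the genes with a pattern most like the summed pair, by Pearson correlation of log2(CPM + 5), were Rnf19b (0.87), Cybc1 (0.87), Hpcal1 (0.87), Ripk1 (0.85) and Gm43775 (0.85), of 8079 genes compared. The pair itself correlated negatively with Hspd1 (-0.75), Hspe1 (-0.65) and Hsp90ab1 (-0.62), and with Hspa8 at -0.03. Most like Hspa8 were Pigyl, Mrps15, Uqcrq, Psmg4 and Dpysl2, at 0.95 to 0.96. Most like Hspb1 were Gm48582, Clec4b1, Cd83, Plxnd1 and Flrt3, at 0.75 to 0.79. Combinations share libraries and classes, so these values only describe the pattern. None of the 5 genes named for each remained among the 5 when the classes were limited to those with 200 or more cells in every library.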

How the data were processed

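Single-cell RNA-seq of LLC1 tumours was available as 3 matrices of UMI counts, deposited by the authors as raw counts per gene and barcode. They were made with Cell Ranger 7.0.0, per the file headers, on mm10, per the submitters' processing notes; of the annotation and the intron setting nothing is stated here. Introns, if counted, would enter these levels. Cells with at least 300 genes and at most 15% mitochondrial UMIs were kept, doublets marked by Scrublet in each library (3.12%, 2.36% and 2.73% in the Mfn2 knockout, Rhot1 knockout and wild type) were removed, and cells were clustered with Leiden at resolution 1 (scanpy 1.11.5, Python 3.11.15) on 2000 variable genes and 30 principal components. Clusters were named from marker lists; a cluster was left unnamed where fewer than 3 markers were detected, where it was shallow with no leading marker, or where it also carried tumour markers. That rule was revised after the data were seen. The members and gene lists were chosen with earlier results of these data known.

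UMIs were summed per class and library. A gene counted as measured at 10 CPM in at least 1 of the 2 libraries. Levels have exact Poisson intervals, ratios exact conditional intervals and shares exact Clopper-Pearson intervals, all at 95%; with 1 library per genotype no test was made. All 10 members are named. From the other lists the 2 highest and 2 lowest ratios, and, chosen after their values were seen, genes in small counts and Atf3, Fos, Hspa5 and Hmox1 in all libraries are named. Poisson counts were simulated from the class totals with 200 genes changed 2-fold, well past the fold. Of the changed genes 100%, 100%, 99% and 92% passed in tumour-, macrophage-, monocyte- and neutrophil-like cells, and 0%, 5.46%, 18.2% and 44.8% of unchanged genes did. The simulation holds counting error only. It leaves out UMIs gathered in few cells and the spread between pools, so it gives no error rate for the real comparisons. Filters, clustering, class rule, depth, scaling and fold were varied. Of 55357 gene identifiers 52081 were found in GENCODE M21.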

Additional observations from a re-analysis of the deposited data

How the results depend on the processing

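No paired analysis was possible because each genotype has 1 library and no replicate. Counts of members lower are given as the Mfn2 knockout, then the Rhot1 knockout, each against the wild type; as reported they were 3 and 2 in tumour-like, 3 and 5 in macrophage-like, 4 and 5 in monocyte-like and 5 and 2 in neutrophil-like cells. With at least 500 genes and at most 10% mitochondrial UMIs the tumour-like Mfn2 count was 1. In neutrophil-like cells the counts were 3 and 6 at resolution 0.5, 3 and 1 at resolution 2, and 3 and 6 with members and stress genes left out of clustering. With each library clustered on its own they were 6 and 4 in tumour-like cells, 5 for Mfn2 in macrophage-like cells and 8 and 7 in neutrophil-like cells. With the class taken from the highest marker score they were 4 for Rhot1 in tumour-like cells, 2 for Mfn2 in monocyte-like cells and 3 and 4 in neutrophil-like cells. The Rhot1 count was 5 in neutrophil-like cells thinned to 1500 UMIs, 4 there without the top cell of each gene, 4 in tumour-like cells with median-ratio size factors and 1 there at 50 CPM. At a log2 fold of 0.58 the counts were 1 and 1 in tumour-like, 2 and 3 in monocyte-like and 1 and 0 in neutrophil-like cells. The cause was not tested.

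Turned signs were looked for only in member ratios that counted as lower or higher as reported, and in list medians past the fold. Smaller ratios and medians were left out, and their signs may have turned too. Signs turned for few of the values included, nearly all in neutrophil-like cells. There the log2 ratio in the Mfn2 knockout became 0.026, 0.061 and 0.19 for Hspa8 and 0.35, 0.36 and 0.37 for Hspd1 at resolution 0.5, with stress genes left out and by marker score, and 0.030 for Hsph1 at resolution 2. Hspd1 became 0.17 in the Mfn2 knockout in monocyte-like cells by marker score. List medians in neutrophil-like cells became -0.021, -0.0033 and -0.21 for mitochondrial chaperones in the Rhot1 knockout at resolution 0.5, with stress genes left out and with each library on its own, 0.018 for immediate early genes in the Mfn2 knockout with each library on its own, and 0.51 for Nrf2 targets in the Mfn2 knockout at 1500 UMIs. The cause was not tested. In macrophage-like cells Hspa1a lay between -1.04 and -0.78 in the Mfn2 knockout and between -1.66 and -1.39 in the Rhot1 knockout over 13 settings, and Hspa1b between -1.56 and -1.27 and between -1.83 and -1.50. In tumour-like cells Hspa1b lay between -1.65 and -0.78 and between -1.38 and -0.80.

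Depth limits the neutrophil-like class, and pools of mice without replicates limit every comparison between hosts.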
